A study of Mus musculus with 6 samples.

Results

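The genes described are matrix metalloproteinases (MMPs) and their natural inhibitors. Members were taken by gene symbol from the platform annotation, with the brightest probe set that lists the gene alone standing for each. Of the 10 genes on the list, 9 have such a probe set, 1 each, among 19938 named genes: the proteases Mmp2, Mmp9, Mmp11, Mmp14 and Mmp24, and the inhibitors Timp1, Timp2, Timp3 and Reck. Mmp15 was not analysed here.

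RNA was compared between Tdg knockdown cells (3 arrays) and control cells (3 arrays), both of the E14 mouse embryonic stem cell line, on Affymetrix whole-transcript arrays. Tdg encodes thymine DNA glycosylase, which excises mismatched thymine and oxidised forms of methylcytosine from DNA. Cultures were kept on gelatin in serum and LIF, a cytokine that holds stem cells undifferentiated. Both groups received lentiviral vector at 10 infectious units per cell and, 48 h later, puromycin at 2 ug/ml to select transduced cells. Titles and design name Tdg as the gene knocked down, while the extraction protocol speaks of Kdm2b. The labels give neither the vector of the control cells nor the sequence used for knockdown, and leave unsaid whether a group's arrays stand for separate cultures, so the p-values rest on a spread between arrays that could be purely technical.

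MMPs are zinc enzymes made as inactive precursors, which cut collagens, laminins and other proteins outside the cell. Some are secreted (Mmp2, Mmp9, Mmp11), and others are anchored in the cell membrane (Mmp14, Mmp24). TIMPs are small secreted proteins that block the active site of MMPs, and Timp2 has a further role, since it bridges Mmp14 to the Mmp2 precursor in the complex that activates Mmp2. Reck is an inhibitor tethered to the cell surface. In the mouse embryo such enzymes act where cells cross or reshape basement membrane.

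The letters before the start sites of the 3 TIMP genes are shown as the starts of the inhibitor genes whose values are set side by side here. Capitals mark every CpG, the dinucleotide in which most methylated cytosines of mammals lie. Each run holds the 250 bases before the RefSeq start site, in build GRCm38.p6, read 5′ to 3′ on the gene's strand.
Timp2, chr11:118355412-118355661, minus strand: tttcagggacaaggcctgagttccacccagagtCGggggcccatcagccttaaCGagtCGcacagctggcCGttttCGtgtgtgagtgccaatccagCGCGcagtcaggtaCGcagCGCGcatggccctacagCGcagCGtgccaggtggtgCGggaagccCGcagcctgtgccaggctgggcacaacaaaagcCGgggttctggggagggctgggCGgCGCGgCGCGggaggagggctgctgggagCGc
Timp3, chr10:86300162-86300411, plus strand: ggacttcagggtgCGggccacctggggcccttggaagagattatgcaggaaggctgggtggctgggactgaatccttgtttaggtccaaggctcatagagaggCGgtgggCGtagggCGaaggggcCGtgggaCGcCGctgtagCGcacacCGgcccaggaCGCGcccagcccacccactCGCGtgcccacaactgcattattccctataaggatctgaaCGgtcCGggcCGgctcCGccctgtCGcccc
Timp1, chrX:20869916-20870165, plus strand: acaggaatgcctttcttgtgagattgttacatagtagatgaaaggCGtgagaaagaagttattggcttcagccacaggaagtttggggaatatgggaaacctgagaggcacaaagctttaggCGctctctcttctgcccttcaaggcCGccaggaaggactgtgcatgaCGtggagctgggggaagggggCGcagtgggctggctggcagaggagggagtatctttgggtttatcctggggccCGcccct

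These runs hold 21 CpGs for Timp2, 18 for Timp3 and 6 for Timp1. Over a window of 300 bases, which adds the first 50 of the transcript, the promoter table covers 8 of the 10 genes, and Mmp2 and Mmp9 are not among them. That window held 19 CpGs at Mmp11, 10 at Mmp14, 44 at Mmp24, 8 at Timp1, 25 at Timp2, 24 at Timp3 and 23 at Reck, where the median of all 32851 promoters in the table was 7. No relation between these counts and the differences below was tested. The letters GGGCGG, searched on both strands, were present in all 7 of these measured genes and in 35.7% of all promoters, from 1 match at Timp1 and Timp2 to 4 at Mmp11. Neither TGANTCA, the letters of an AP-1 site, nor CACGTG, an E-box, was found in any of them (7.81% and 7.15% of all promoters hold them). A CpG within GGGCGG is counted in both tallies, and methylation was not measured here.

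Tdg signal, the mean of 4 probe sets that the annotation shares with the pseudogene Tdg-ps2, was 8.24, 8.16 and 7.93 in Tdg knockdown arrays, against 11.1, 11.2 and 11.1 in control arrays, on the log2 scale. Across named genes the arrays correlated at 0.990 to 0.998. Knockdown replicate 3 stood apart on the first principal component (31.1, where the other 5 arrays lay between -17.5 and 5.04). All 12 embryonic stem cell markers examined were above the floor described next on every array, and their mean level was 12.09 to 12.18 in knockdown and 12.09 to 12.14 in control arrays. The deposited table has no detection call, so the 95th percentile of 1027 olfactory receptor genes, mostly silent outside the nose, served as a floor. It was 6.53 to 6.91 in knockdown and 6.54 to 6.70 in control arrays. All 9 measured genes lay above it on all 6 arrays, Mmp24 by the least.

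In the comparison of all named genes without a block, 0 of the 9 genes passed the threshold, an adjusted p of 0.05 in limma, where 0.792% of all named genes did. At an unadjusted p under 0.05 there were 4, Mmp2, Timp2, Timp3 and Reck, all lower in knockdown cells, a direction and p that 7.48% of all named genes showed. In the same 4 genes every knockdown array lay below every control array, as in 11.0% of all named genes. With the replicate number of the titles as a block, a model that holds only if equal numbers mark paired samples, Mmp2, Timp2 and Timp3 passed and were lower, against 2.01% of all named genes called lower in that model. The median log2 fold change (knockdown minus control) was -0.13 over the 9 genes and 0.02 over all named genes.

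Mmp2, gelatinase A, which degrades denatured collagen and type IV collagen of basement membranes, had a log2 signal of 10.14, 10.23 and 10.13 in Tdg knockdown arrays, against 10.51, 10.55 and 10.61 in control arrays. The groups did not overlap, and the gap between the highest knockdown and the lowest control array was 0.28, wider than the range of values within either group. The log2 fold change was -0.39 (SE 0.06, n = 3 each), a signal of 76.3% of control with a 95% interval of 68.8% to 84.7%. Its adjusted p in limma was 0.0520, just above the threshold, and 0.0355 with the replicate block.

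Mmp9, gelatinase B, whose substrates overlap with those of Mmp2, had 7.34, 7.49 and 7.47 in the knockdown arrays and 7.40, 7.48 and 7.48 in control arrays. The groups overlapped, and the log2 difference was -0.02, with a 95% interval of -0.18 to 0.14 (limma adjusted p 0.935). A difference in signal as large as that of Mmp2 lies outside this interval, though Mmp9 lay nearer the floor than Mmp2. Mmp11, stromelysin 3, which leaves the cell already activated by furin, had 9.96, 10.10 and 10.04 in knockdown against 10.10, 10.20 and 10.18 in control arrays. The highest knockdown array equalled the lowest control array, and the difference of -0.13 (interval -0.28 to 0.03) did not pass (adjusted p 0.522, or 0.230 with the replicate block).

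The membrane proteases did not differ detectably. Mmp14, MT1-MMP, the main activator of Mmp2 at the cell surface, had 8.25, 8.42 and 8.30 in knockdown and 8.32, 8.48 and 8.38 in control arrays, a log2 difference of -0.07 (interval -0.25 to 0.11, limma adjusted p 0.781). Mmp24, MT5-MMP, best known from neurons, had 6.99, 7.03 and 7.09 in knockdown and 6.95, 7.05 and 7.10 in control arrays. Both sets of 3 values spanned nearly the same range, and the difference was 0.00 (interval -0.16 to 0.16).

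**Figure D1:**
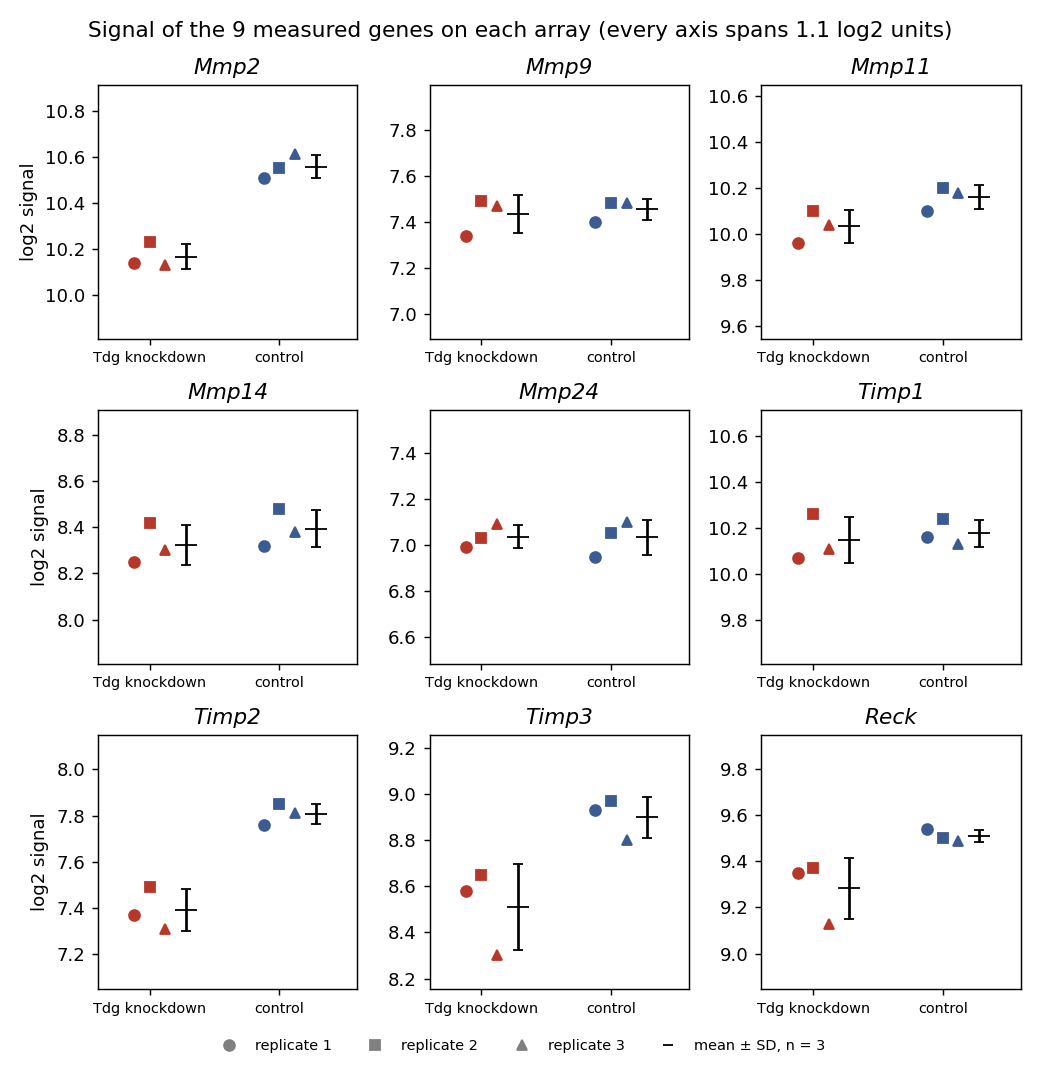
Log2 signal (vertical axis) of each of the 9 measured genes on the 3 Tdg knockdown arrays (red, left) and the 3 control arrays (blue, right), with mean ± SD beside them and 1 symbol per replicate number. The groups are apart for Mmp2, Timp2, Timp3 and Reck and overlap or touch for the other 5 genes.

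The log2 signal of the inhibitor gene Timp2 was 7.37, 7.49 and 7.31 in Tdg knockdown arrays, against 7.76, 7.85 and 7.81 in control arrays. No knockdown array came within 0.27 of a control array. The log2 fold change was -0.42 (SE 0.07), which leaves 74.9% of the control signal (95% interval 66.8% to 84.1%), with an adjusted p in limma of 0.0567, and of 0.0297 with the replicate block. Like Mmp9, Timp2 lay nearer the floor than Mmp2. In knockdown replicate 3 it had 7.31, where the floor was 6.91, so background may affect the percentage.

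Timp3, a TIMP that binds to the matrix and also inhibits the sheddase Adam17, had 8.58, 8.65 and 8.30 in knockdown and 8.93, 8.97 and 8.80 in control arrays. The arrays numbered 3 were the lowest of both groups, so the spread within each group was wide and narrowed once the number was a block. The log2 fold change was -0.39 in both models, with an SE of 0.10 and an adjusted p of 0.166 without the block, and an SE of 0.06 and an adjusted p of 0.0368 with it. Leaving out knockdown replicate 3, the array that stood apart, gave -0.29 (adjusted p 0.128, no block).

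Reck, which besides restraining MMPs serves as a co-receptor for WNT7 ligands, had 9.35, 9.37 and 9.13 in knockdown and 9.54, 9.50 and 9.49 in control arrays. The groups were apart by 0.12, and knockdown replicate 3 was the lowest array. The log2 fold change was -0.23 (SE 0.08) and did not pass in limma (adjusted p 0.306, or 0.126 with the replicate block). Without knockdown replicate 3 it was -0.15 (adjusted p 0.297).

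Timp1, an inhibitor of many secreted MMPs that binds most membrane MMPs only weakly, had 10.07, 10.26 and 10.11 in knockdown and 10.16, 10.24 and 10.13 in control arrays. The groups overlapped and the log2 difference was -0.03, with an interval of -0.20 to 0.14 (limma adjusted p 0.907). That interval leaves out the differences measured for Timp2 and Timp3.

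Differences between arrays of equal number were close in the 3 genes that passed with the block. In numbers 1, 2 and 3 they were -0.37, -0.32 and -0.48 for Mmp2, on the log2 scale. For Timp2 they were -0.39, -0.36 and -0.50, and for Timp3 -0.35, -0.32 and -0.50. All 3 genes thus had their smallest difference in number 2 and their largest in number 3, which holds knockdown replicate 3. Reck had -0.19, -0.13 and -0.36, Mmp11 -0.14, -0.10 and -0.14, and Mmp14 -0.07, -0.06 and -0.08, all below 0, while Mmp9, Mmp24 and Timp1 had values on both sides of 0.

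**Figure D2:**
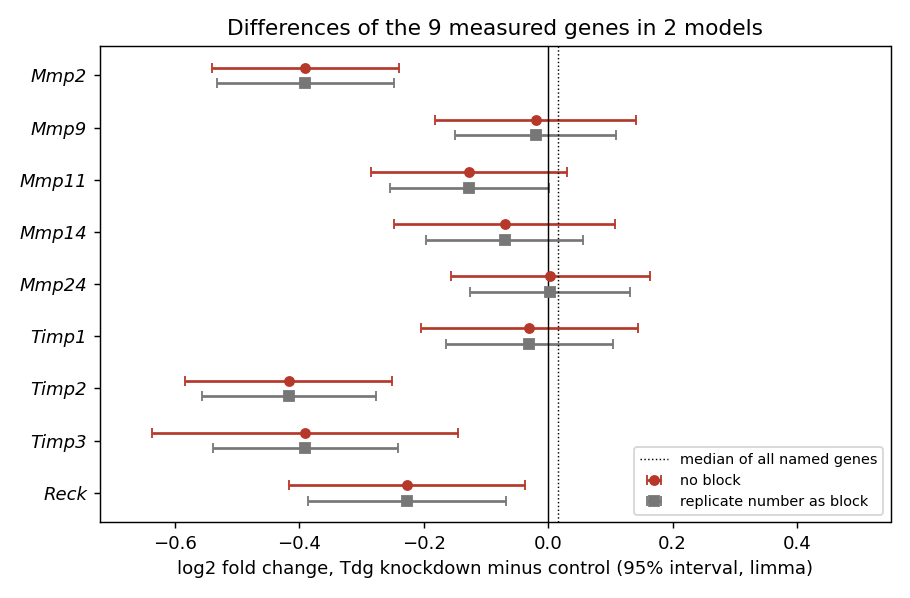
Log2 fold change (horizontal axis, Tdg knockdown minus control) of the 9 measured genes with 95% intervals from limma, without a block (red circles) and with the replicate number as a block (grey squares). In both models the intervals of Mmp2, Timp2, Timp3 and Reck lie below 0 and the dotted line marks the median of all named genes, 0.02.

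These arrays measure whole cultures, so fewer cells with a transcript and less transcript per cell cannot be told apart. Mmp2 and the TIMPs are abundant in fibroblasts and in endoderm of the early embryo, so markers of both were examined. Among 11 fibroblast markers 0 passed in limma with or without the block. At an unadjusted p under 0.05 in limma 1 was lower, where 7.48% of all named genes were. The median log2 fold change was 0.02, and the mean level was 6.50 to 6.82 in knockdown and 6.51 to 6.70 in control arrays. Only 6 of the 11 were above the floor on every array, and Dcn, Lum and Postn, matrix genes of fibroblasts, were not. The lowest difference was that of Pdgfrb (-0.26) and the highest that of Lum (0.12). Markers of primitive, parietal and visceral endoderm numbered 12, of which 7 were above the floor on every array. In limma 0 passed without the block and 1 fell with it, where 2.01% of all named genes fell with it. At an unadjusted p under 0.05 in limma 0 were higher and 2 lower, where 5.03% and 7.48% of all named genes were. The median log2 fold change was 0.09 over all 12 and -0.0033 over the 7 above the floor, the other 5 lying between 0.08 and 0.15, with mean levels of 7.01 to 7.28 in knockdown and 7.01 to 7.19 in control arrays. Hnf4a, a transcription factor of visceral endoderm, had the lowest value there (-0.46, adjusted p 0.0673, or 0.0360 with the replicate block), and Sox17 the highest (0.15). Dab2, an endocytic adaptor of that endoderm, named after its values were seen, had -0.30 (limma adjusted p 0.196, or 0.0858 with the block). The other markers above the floor, also named after their values were seen, were dimmer. Their control means ran from 6.73 (Pdgfra) to 7.83 (Gata4), against 8.89 for Hnf4a and 8.48 for Dab2. Pdgfra lay close to the floor, where a drop is harder to see. Gata4 had -0.05, Pdgfra -0.0033, Amn 0.08, Gata6 0.11 and Foxa2 0.15. The 9 trophoblast markers ranged from -0.19 (Krt7) to 0.32 (Hand1) and the 8 leukocyte markers from -0.10 (Cd68) to 0.23 (Cd14), none past the threshold in limma in either model (1 higher and 1 lower at an unadjusted p under 0.05 among the trophoblast markers, 0 among the leukocyte markers). In the stem cell list the lowest adjusted p was 0.489, and differences ran from -0.10 (Sox2) to 0.12 (Klf2). The part of such cells in the differences of Mmp2, Timp2 and Timp3 was not tested.

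The rest of the MMP family was mostly dim. Of 17 further MMPs and Timp4, 4 were above the floor on every array (Mmp17, Mmp23, Mmp25 and Mmp28). None of the 18 passed in limma, also with the block. At an unadjusted p under 0.05 in limma 1 was higher and 1 lower, where 5.03% and 7.48% of all named genes were. The pair were Mmp19, at 6.37, 6.29 and 6.51 in knockdown against 6.05, 6.11 and 6.24 in control arrays (0.26, adjusted p 0.263), and the leukocyte membrane protease Mmp25, at 8.89, 8.98 and 8.83 in knockdown against 9.02, 9.14 and 9.16 in control arrays (-0.21, adjusted p 0.294). Mmp19 was not above the floor on every array. The median of the 18 was 0.03, and -0.05 without knockdown replicate 3, so its sign rested on that array.

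Genes of the ADAM and ADAMTS families, many of which encode proteases that shed surface proteins or cut proteoglycans, had 0 of 30 past the threshold without a block. At an unadjusted p under 0.05 in limma there were 3, all lower, where 7.48% of all named genes were lower. The median of this list was 0.01, and -0.05 without knockdown replicate 3. Adam8 had 7.76, 7.90 and 7.84 in knockdown against 8.14, 8.27 and 8.25 in control arrays (-0.39, adjusted p 0.0659, or 0.0292 with the replicate block). Adamts10 differed by -0.26 (adjusted p 0.174, or 0.0673 with the block).

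The next list held 14 genes, namely pro-protein convertases, genes of the plasminogen system and the membrane serine proteases St14 and Hpn. Some of their products activate MMP precursors. At an unadjusted p under 0.05 in limma 2 were lower, where 7.48% of all named genes were. Past the threshold 1 fell, where 110 of the 19938 named genes did. The gene that fell was St14, the membrane serine protease matriptase. Its log2 signal was 10.69, 10.77 and 10.85 in knockdown against 11.16, 11.19 and 11.27 in control arrays (-0.44, SE 0.07, limma adjusted p 0.0486). Leaving out any 1 of the arrays except knockdown replicate 3 ended the call (limma adjusted p 0.131 to 0.255). No named gene passed without knockdown replicate 1, control replicate 1 or control replicate 2, so no call could be kept there. The median of this list was -0.11.

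Of 17 surface partners and clearance factors of MMPs, 16 had values below 0 (43.6% of all named genes did), with a median of -0.13. All 17 were above the floor on every array, while the 43.6% also covers dim genes. Without the dimmest genes, the lower tertile by mean level, the median of all named genes was -0.01. Without knockdown replicate 3 it was -0.0050, and the median of this list was -0.09. At an unadjusted p under 0.05 in limma 4 were lower, where 7.48% of all named genes were. Past the threshold 1 fell, where 110 of the 19938 named genes did. Thrombospondin 1, encoded by Thbs1, had 9.88, 10.00 and 9.86 in knockdown against 10.84, 10.82 and 10.79 in control arrays (-0.90, SE 0.07, limma adjusted p 0.00773). That call ended without knockdown replicate 1, control replicate 1 or control replicate 2 (limma adjusted p 0.0631 to 0.0841). No named gene passed in those refits, and Thbs1 had -0.90 to -0.89 in them. Itgav, the integrin chain that docks Mmp2 at the surface, was the second to pass with the block (-0.49, adjusted p 0.0504, or 0.0238 with the block) and was named after its values were seen. This list includes Lrp1, the receptor that takes up MMP and TIMP complexes, at -0.23 (adjusted p 0.413), also named after its values were seen.

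Of 22 matrix substrates 0 passed without a block, and the median was -0.07. At an unadjusted p under 0.05 in limma 6 were lower, where 7.48% of all named genes were. The basement membrane genes Lamb1, a laminin chain (-0.34, adjusted p 0.0843, or 0.0474 with the replicate block), and Nid1, nidogen 1 (-0.27, adjusted p 0.185, or 0.0717 with the block), had the smallest p.

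**Figure D3:**
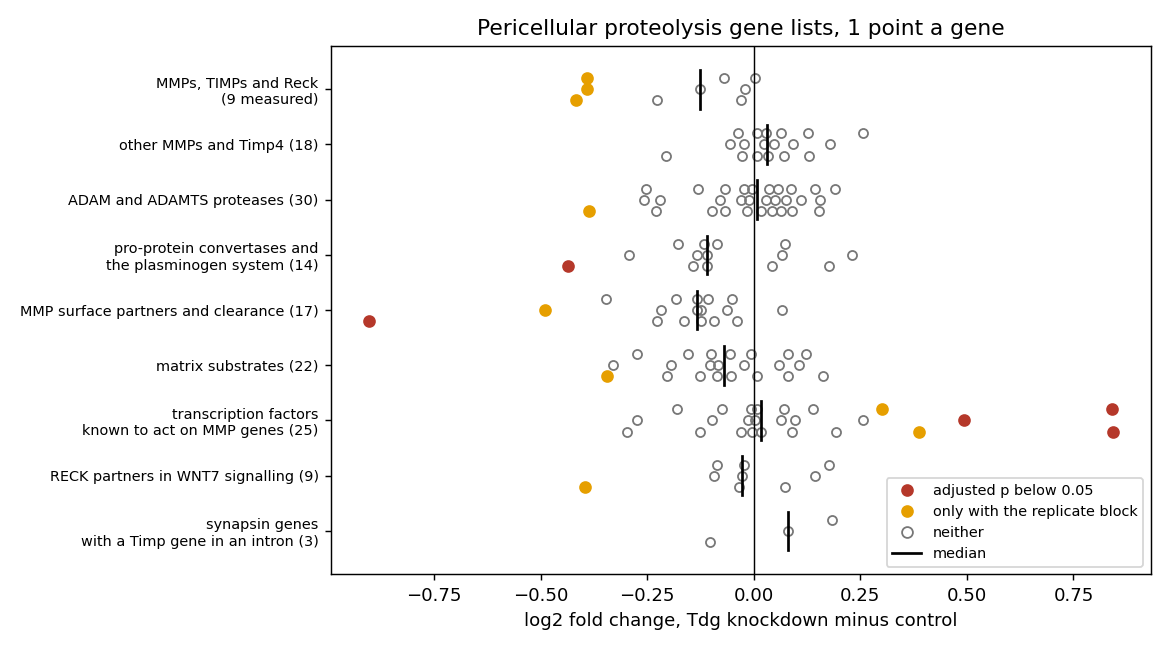
Log2 fold change (horizontal axis, Tdg knockdown minus control) of the 9 measured genes and of each related list, 1 point per gene and a bar at the median. Red points passed without a block, orange ones with the replicate block alone, and the surface partners are the list with 16 of 17 points below 0.

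Among 25 transcription factors known to act on MMP genes in various cell types, 3 rose and 0 fell in limma, where 0.241% of all named genes rose. At an unadjusted p under 0.05 in limma, 7 were higher and 3 lower, where 5.03% of all named genes were higher and 7.48% lower. The list was drawn up with earlier results of these data known. Its counts may therefore reflect that choice and are a description only. Egr1, an immediate early factor, had 10.81, 10.85 and 10.86 in knockdown against 9.97, 9.94 and 10.08 in control arrays (0.84, limma adjusted p 0.00803). Fos, a subunit of AP-1, had 7.89, 7.99 and 8.11 in knockdown against 7.02, 7.04 and 7.41 in control arrays (0.84, adjusted p 0.0360), and Lef1, a Wnt effector, had 8.91, 9.03 and 8.87 in knockdown against 8.44, 8.50 and 8.39 in control arrays (0.49, adjusted p 0.0360). The calls of Egr1 and Fos ended without knockdown replicate 1, knockdown replicate 2, control replicate 1 or control replicate 2 (limma adjusted p 0.0589 to 0.219). No named gene was called higher in those refits. The call of Lef1 ended without any 1 array but knockdown replicate 3 (limma adjusted p 0.0982 to 0.208). With the block Fosb (0.30) and Etv4 (0.39) passed as well, named after their values were seen. The median of the list was 0.02, that of all named genes. Whether these factors bear on the MMP genes in these cells was not tested.

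Of 9 partners of Reck in WNT7 signalling, 0 passed without a block. At an unadjusted p under 0.05 in limma 1 was higher and 1 lower, where 5.03% and 7.48% of all named genes were. The ligand gene Wnt7b had 7.52, 7.67 and 7.65 in knockdown against 7.95, 8.01 and 8.07 in control arrays (-0.40, adjusted p 0.0624, or 0.0296 with the replicate block), and the receptor gene Lrp5 differed by 0.18 (adjusted p 0.261).

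Timp1 and Timp3 overlap the synapsin genes Syn1 and Syn3 in RefSeq GRCm38.p6. Timp4 is known to lie within Syn2, a position not looked up here. None of these 3 synapsin genes passed in limma, and none had an unadjusted p under 0.05. Syn1 differed by 0.08 (adjusted p 0.726) and Syn3 by -0.10 (adjusted p 0.555, or 0.315 with the replicate block). Syn3 had 7.63, 7.66 and 7.64 in knockdown arrays, against 7.72, 7.73 and 7.79 in control arrays, and the groups did not overlap. Timp3, which overlaps Syn3, had -0.39, and the difference between these values was not tested.

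The 3 genes whose pattern over the 6 arrays was closest to that of Mmp2, after each gene's own mean was taken off, were the tetraspanin gene Tspan18 (root mean square difference 0.02 on the log2 scale), the lysosomal acetyltransferase gene Hgsnat (0.02) and Lrp11 (0.03). They were picked from 19938 genes for their likeness, so their values are a description. Their log2 fold changes were -0.38, -0.41 and -0.43, and unlike Mmp2 they passed in limma without a block, with adjusted p of 0.0483, 0.0451 and 0.0400, so the threshold ran between genes of nearly equal difference. Their calls also ended without any 1 array other than knockdown replicate 3 (limma adjusted p 0.0926 to 0.255). Without knockdown replicate 1, control replicate 1 or control replicate 2 the calls of all named genes ended.

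**Figure D4:**
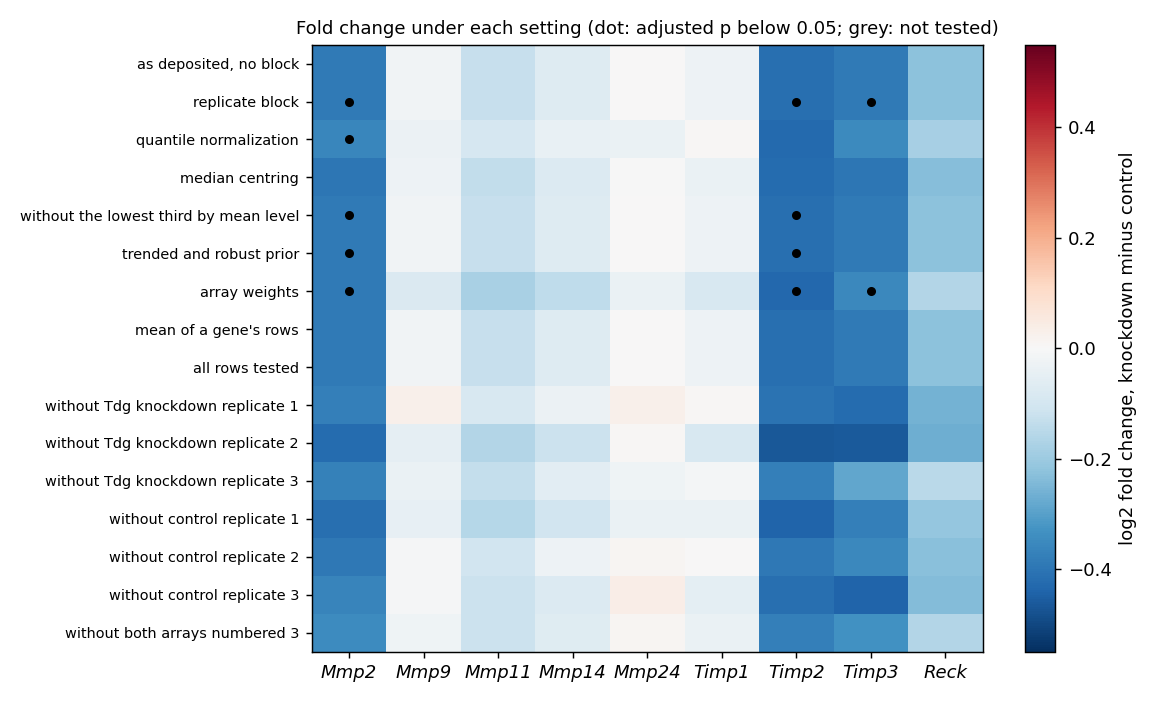
Log2 fold change (colour, Tdg knockdown minus control) of the 9 measured genes under each model and normalization tried, with a dot where the adjusted p was below 0.05. Dots appear for Mmp2, Timp2 and Timp3 and for no other gene, and Mmp2, Timp2, Timp3, Reck, Mmp11 and Mmp14 stay below 0 in every setting shown.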

How the data were processed

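RNA from 6 samples of E14 cells (3 Tdg knockdown, 3 control) was hybridised as biotin-labelled target, per the labels' protocols. The deposited table holds a log2 signal for each probe set on each array. The authors made it in Expression Console from Affymetrix, per the submitters' processing notes, with version, summarisation and normalization not given in the sources used here. Values ran from 2.26 to 14.03, array medians from 7.41 to 7.48, and precision is limited by the number of arrays.

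The table has 35557 rows, of which 21789 list 1 gene, 1621 several and 12147 none. Of those with 1 gene, 21698 matched a RefSeq gene identifier (GRCm38.p6), and the brightest row of each gene left 19938 named genes. Knockdown was compared with control in limma 3.58.1 (R 4.3.3, lmFit and eBayes, two-sided), with Benjamini-Hochberg adjustment over all named genes. Promoter sequences are those of RefSeq. Amino acid motifs, planned at first, were not examined.

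Equal replicate numbers may mark pairs: deviations from the group means correlated at 0.61, 0.23 and 0.70 in the same-numbered pairs, above the criterion of 0.1. Knockdown replicate 2 was closer to control replicate 1 (0.44) than to the control of its own number, so the calls made with the block, those of Mmp2, Timp2 and Timp3 among them, rest on a pairing that is not the best match for that array. No label says what the numbers share.

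The members, the 8 gene lists, the 5 marker lists and the alternatives were chosen with earlier results of these data known. The rule for named genes takes the members, and from each list the 4 called genes of smallest p in either direction (the 2 of smallest p if none was called). It also takes Tdg, the extremes of each marker list and the 3 profiles nearest to a called member or, with none called, to that with the smallest p. The fit was tested on simulated data with known changes. It recovered 68.1% of changes of 0.5 log2 units and 98.8% of changes of 1. The largest difference among the measured members was smaller (-0.42, Timp2), so changes of their size could often miss the threshold. Simulated noise was independent between arrays, with no array that stood apart and nothing shared by replicate number.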

Additional observations from a re-analysis of the deposited data

How the results depend on the processing

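The differences of Mmp2, Timp2, Timp3, Reck, Mmp11 and Mmp14 kept their direction under all 15 alternatives. Mmp2 passed with the replicate block (-0.39, adjusted p 0.0355), with quantile normalization (-0.36, 0.0396), without the dimmest genes, the lower tertile by mean level (-0.39, 0.0210), with a trended and robust prior (-0.39, 0.0102) and with array weights (-0.39, 0.00458). Timp2 passed with the block (-0.42, 0.0297), without the dimmest genes (-0.42, 0.0237), with the trended prior (-0.42, 0.0464) and with array weights (-0.43, 0.00434), and Timp3 with the block (-0.39, 0.0368) and with array weights (-0.36, 0.0166). The cause was not tested. Members past the threshold, all lower, thus numbered 3 with the block or array weights, 2 without the dimmest genes or with the trended prior, 1 with quantile normalization and 0 otherwise. No member passed when any 1 array was left out, where 3 or 4 had an unadjusted p under 0.05 in limma. Over these 6 refits the ranges were -0.42 to -0.36 for Mmp2, -0.47 to -0.38 for Timp2, -0.46 to -0.29 for Timp3 and -0.27 to -0.15 for Reck.

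Signs turned only in genes with differences near 0. Mmp24 was -0.0383 with quantile normalization, -0.00333 with median centring and -0.0349 with array weights, and ran from -0.0383 to 0.0367 with 1 array left out. Timp1 was 0.00444 with quantile normalization and ran from -0.0867 to 0.00833, and Mmp9 ran from -0.0483 to 0.0267.

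All named genes past the threshold numbered 48 higher and 110 lower. They were 214 and 400 with the block, 153 and 220 with quantile normalization, 29 higher with median centring, 139 and 305 without the dimmest genes, 140 and 306 with the trended prior, 652 and 981 with array weights, 3 and 14 with all rows tested, and 66 lower without both arrays numbered 3. With 1 array left out they ran from 0 to 132 higher and from 0 to 159 lower (1510 to 2924 at an unadjusted p under 0.05 in limma). Both counts were 0 without knockdown replicate 1, control replicate 1 or control replicate 2. Array weights were computed gene by gene, because the default estimate did not converge, and ran from 0.197 (knockdown replicate 3) to 3.74 (control replicate 2). In the lists the block gave 1 lower ADAM or ADAMTS gene, 2 lower surface partners, 1 lower matrix substrate, 5 higher transcription factors and 1 lower Reck partner. With 1 array left out, the calls ran from 0 to 1 lower in the list of convertases, the plasminogen system and membrane serine proteases. They ran from 0 to 2 lower for surface partners and from 0 to 3 higher for transcription factors. Precision is limited by the 3 arrays in each group, and signal over background was judged only from olfactory receptor genes.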

Other observations

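Other genes overlap members in RefSeq GRCm38.p6 and were chosen for that position. Cep295nl, which overlaps Timp2, had a log2 signal of 6.93, 6.82 and 7.24 in the knockdown arrays and 6.81, 6.87 and 7.10 in the control arrays, a difference of 0.07 (SE 0.13, limma adjusted p 0.872). BC029722, which overlaps Mmp24, had 8.51, 8.65 and 8.43 in knockdown and 8.53, 8.58 and 8.75 in control arrays, a difference of -0.09 (SE 0.09, limma adjusted p 0.759). In both genes the groups overlapped.

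Furin, the convertase that activates Mmp11 and Mmp14, had 8.97, 9.10 and 8.91 in knockdown against 9.26, 9.32 and 9.28 in control arrays, a log2 difference of -0.29 (SE 0.07), which did not pass in limma (adjusted p 0.131, or 0.0581 with the replicate block). Adam10, a sheddase that Reck and Timp3 can inhibit, differed by -0.23 (adjusted p 0.447) and Adam17 by -0.07 (adjusted p 0.791). These 3 genes were named after their values were seen.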
